A study of Mus musculus with 6 samples.

Results

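Chemokines are small secreted proteins that draw leukocytes towards their source through G protein-coupled receptors, and macrophages are a major source of them. The levels of 10 chemokine genes made by macrophages are described here, out of 54532 genes in the deposited tables: Ccl2, Ccl3, Ccl4, Ccl6, Ccl7, Ccl9, Cxcl2, Cxcl10, Cxcl16 and Pf4. They were taken by name, and each name matched 1 gene in the GENCODE M21 annotation. The other 28 chemokine ligand genes looked up make 38 ligands in all.

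The cells were mouse iBMDM, macrophages grown from bone marrow and made to divide without limit with retroviral v-raf and v-myc, and their polyadenylated RNA was sequenced. There were 3 libraries from cells labelled 4-1BBL KO, whose donor mice lacked the TNF family ligand 4-1BBL, and 3 from cells of WT mice. The cells of both groups carried v-raf and v-myc and had been treated with IL-4 at 10 ng/ml for 24 hours, so no response to IL-4 itself can be read from the values. No label ties the libraries to separate mice, cultures or immortalised lines. The p-values therefore rest on the variation among 3 libraries a group, which may be technical, and genotype cannot be told apart from other differences between the lines.

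The libraries held 19.1 M to 26.4 M assigned fragments in the KO-labelled group and 20.7 M to 22.3 M in WT, as recovered from the steps of the FPKM values (fragments per kilobase of exon and per M assigned fragments). Tnfsf9, the gene of 4-1BBL, had 10.7, 10.7 and 11.4 FPKM in the KO-labelled libraries and 14.6, 10.4 and 12.05 FPKM in WT (exact two-sided permutation p = 0.4, where 0.1 is the smallest p that 3 against 3 libraries allow). Which part of the gene was deleted is not given in the sources used here, and the antisense gene Gm11110, at 0.0235 FPKM in KO-labelled libraries and 3.72 FPKM in WT on average, overlaps 14.9% of its exon length. A lower Tnfsf9 transcript was thus not seen beyond the spread, and the libraries are named KO-labelled for that reason. All 10 macrophage markers looked up were tested, and 4 were higher and 4 lower in KO-labelled libraries, beside 30.6% and 30.2% of all tested genes. Among the 4 higher, Adgre1 averaged 268 FPKM in KO-labelled libraries and 11.8 FPKM in WT. The efferocytosis receptor gene Mertk averaged 4.24 and 0.00720 FPKM and entered the test only through the KO-labelled libraries. Among the 4 lower, Lyz2 averaged 484 FPKM in KO-labelled libraries and 1207 FPKM in WT, and Cd14 averaged 45.8 and 292 FPKM. Summed levels of the macrophage markers were 1360 to 1410 FPKM in KO-labelled libraries and 2300 to 2350 FPKM in WT. Of 35 markers of neutrophils, mast cells, T cells, B cells, dendritic cells and fibroblasts, 17 were at 0 in every library. The B cell markers summed to 1.43 to 1.80 FPKM in KO-labelled libraries and 0.0628 to 0.615 FPKM in WT, mostly from Cd79b, and the T cell marker Lck was lower, at 0.771 FPKM in KO-labelled libraries and 1.79 FPKM in WT (limma adjusted p = 0.00248). The part of these markers in the chemokine levels was not tested. In bulk libraries, fewer cells that make a transcript and less of it per cell cannot be told apart.

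Chemokines are grouped by the cysteines near their amino terminus into CC ligands (Ccl genes) and CXC ligands (Cxcl genes and Pf4). CCL2 and CCL7 attract monocytes through CCR2, CCL3 and CCL4 attract monocytes, macrophages and T cells, CXCL2 attracts neutrophils through CXCR2, and CXCL10 is an interferon-induced attractant of T and NK cells through CXCR3. Many of these genes are induced through NF-kB, interferon-regulated factors or AP-1 at sites close upstream of the gene, and several of their transcripts are short-lived because of AU-rich elements in the tail of the mRNA.

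The sequences upstream of 4 members are shown because their genes changed in opposite directions, Cxcl10 against Cxcl2 and the neighbours Ccl6 against Ccl9. Upstream windows from RefSeq (GRCm38.p6) were at hand for 6 of the 10 members, and those of the other members were not used here. In the 250 bases before the RefSeq start, 5 motifs were searched on both strands. They were NF-kB (GGGA, any 4 bases, CC), the interferon-stimulated response element or ISRE (GAAA, any 2 bases, GAAA), the interferon-gamma activated sequence or GAS (TTC, any 3 bases, GAA), STAT6 (TTC, any 4 bases, GAA) and AP-1 (TGANTCA). Capitals mark matches, which may overlap. The windows are Cxcl10 at chr5:92348890-92349139 on the minus strand, Cxcl2 at chr5:90903649-90903870 on the plus strand, Ccl6 at chr11:83593088-83593337 on the minus strand and Ccl9 at chr11:83578637-83578886 on the minus strand, each 5′ to 3′ along the gene.
Cxcl10: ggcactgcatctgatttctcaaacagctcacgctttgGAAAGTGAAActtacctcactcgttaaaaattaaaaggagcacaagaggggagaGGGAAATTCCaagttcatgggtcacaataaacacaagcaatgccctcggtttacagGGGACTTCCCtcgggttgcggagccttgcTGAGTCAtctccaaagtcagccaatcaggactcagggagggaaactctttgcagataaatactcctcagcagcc
Cxcl2: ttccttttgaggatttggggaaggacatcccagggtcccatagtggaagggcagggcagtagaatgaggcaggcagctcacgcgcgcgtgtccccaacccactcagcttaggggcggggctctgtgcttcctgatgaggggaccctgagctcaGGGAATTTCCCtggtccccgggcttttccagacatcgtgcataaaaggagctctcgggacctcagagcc
Ccl6: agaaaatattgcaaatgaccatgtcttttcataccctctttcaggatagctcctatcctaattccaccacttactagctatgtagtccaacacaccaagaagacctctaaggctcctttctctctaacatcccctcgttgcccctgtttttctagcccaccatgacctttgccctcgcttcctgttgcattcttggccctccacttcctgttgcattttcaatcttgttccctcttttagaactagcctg
Ccl9: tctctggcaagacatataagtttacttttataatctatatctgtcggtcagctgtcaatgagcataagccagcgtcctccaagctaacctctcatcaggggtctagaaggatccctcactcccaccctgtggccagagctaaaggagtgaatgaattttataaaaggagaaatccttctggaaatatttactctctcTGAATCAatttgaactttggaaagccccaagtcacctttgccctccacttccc

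Cxcl10 had NF-kB matches at -159 to -150 and at -103 to -94, an ISRE match at -213 to -204 and an AP-1 match at -74 to -68, counted from the RefSeq start. Cxcl2 had overlapping NF-kB matches on both strands at -97 to -88 and -96 to -87, in a window shown without the last 28 bases, which GENCODE M21 places in the transcript. Ccl9 had an AP-1 match at -53 to -47. No motif matched in the windows of Ccl6, Ccl3 and Pf4. Of all 32851 upstream windows, 17.6% held the NF-kB motif, 2.98% the ISRE motif, 7.02% GAS, 5.85% STAT6 and 6.75% AP-1. A match describes the letters and does not show that a factor binds.

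All 10 chemokine genes differed between the groups, 6 higher and 4 lower in KO-labelled libraries. Ccl6, Ccl7, Pf4 and Cxcl10 rose 10-fold or more, Ccl2 and Cxcl16 rose by 2.57 and 2.74 times, Cxcl2 fell most, with a WT mean 18.7 times its KO-labelled mean, and the WT means of Ccl3, Ccl9 and Ccl4 were 1.61 to 2.51 times their KO-labelled means. The test was limma on log2(FPKM + 1) over the 10843 genes that averaged 1 FPKM or more, with Benjamini-Hochberg adjustment over all of them and a threshold of 0.05. The same test called 60.8% of all tested genes, 30.6% higher and 30.2% lower in KO-labelled libraries, so a call by itself sets no gene apart in this comparison. After rescaling to TPM, which makes every library sum to the same total, 3969 genes were higher and 2642 lower, against 3321 higher and 3273 lower in FPKM, and the 10 members kept their calls and directions. The groups did not overlap for any of the 10, as was the case for 67.4% of tested genes. All 10 members passed the filter on the mean, but Pf4, Cxcl10 and Ccl6 were below 1 FPKM in WT and passed only through their level in KO-labelled libraries, and Cxcl2 was below 1 FPKM in KO-labelled libraries and passed through WT.

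**Figure D1:**
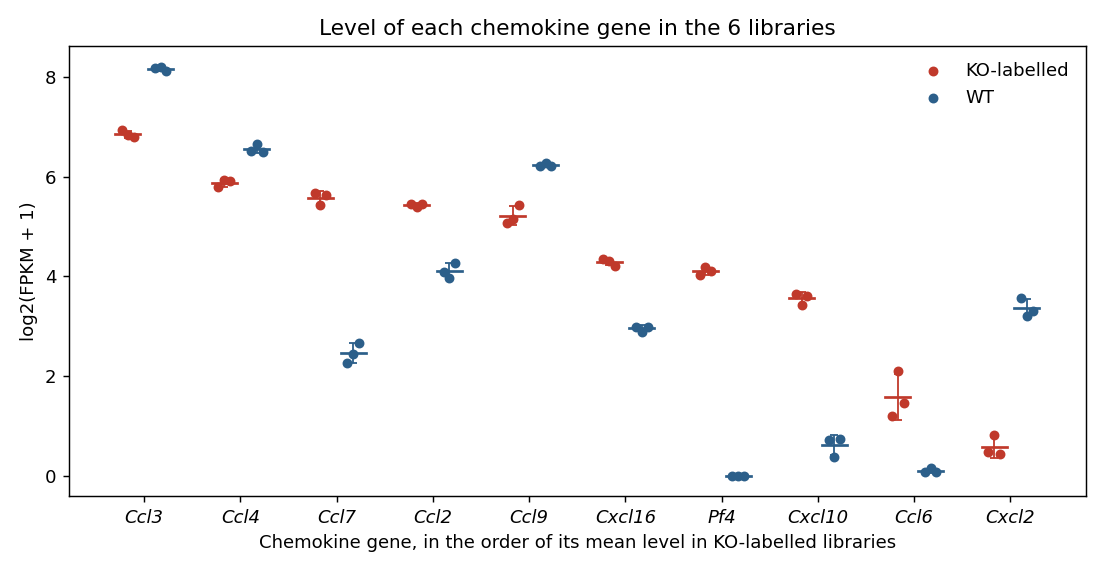
Level of the 10 chemokine genes as log2(FPKM + 1), with 1 point per library, a line at the mean and bars of 1 SD (n = 3 per group), KO-labelled in red and WT in blue. Ccl3, Ccl4, Ccl9 and Cxcl2 lie lower in KO-labelled libraries and the other 6 lie higher, with no overlap between the groups for any gene.

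**Figure D2:**
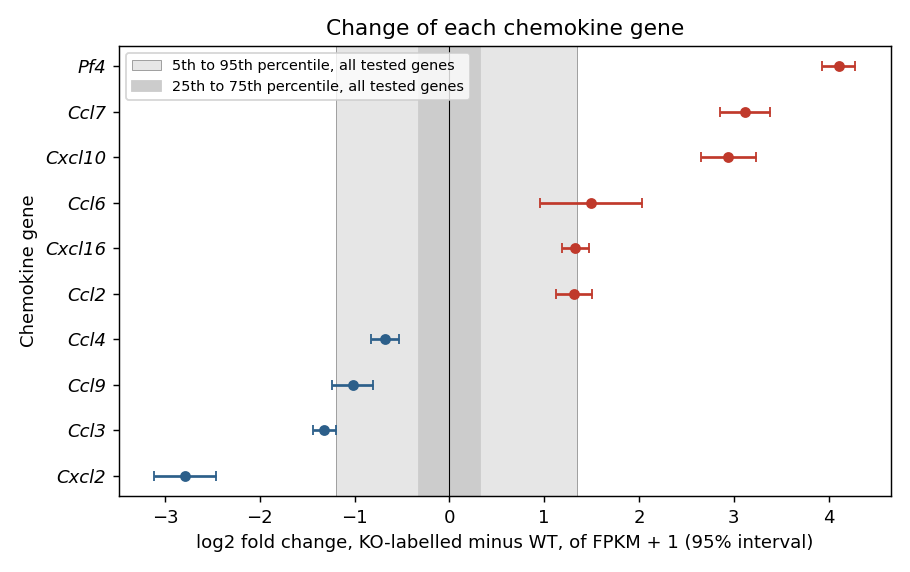
The log2 fold change of each gene, KO-labelled minus WT on the log2(FPKM + 1) scale, with its 95% interval from limma, over bands that hold the middle 50% and the middle 90% of all 10843 tested genes. Pf4, Ccl7, Cxcl10 and Cxcl2 lie well outside the wider band, which runs from -1.20 to 1.34. Ccl6 and Ccl3 lie just outside it, and Ccl2, Cxcl16, Ccl4 and Ccl9 lie inside it.

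The monocyte attractants Ccl2 and Ccl7 were both higher in KO-labelled cells. Ccl2 (ENSMUSG00000035385, chr11:82035571-82037453, plus strand of mm10) had 42.8, 40.8 and 43.0 FPKM in the KO-labelled libraries and 16.1, 14.7 and 18.4 FPKM in WT. The KO-labelled values lay close together and all above the highest WT value. The KO-labelled mean of 42.2 ± 1.25 FPKM and the WT mean of 16.4 ± 1.84 FPKM (SD, n = 3 each) are 2.57-fold apart, with a log2 fold change of 1.32 ± 0.08 (SE) and a limma adjusted p of 1.01e-05 (Benjamini-Hochberg).

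Ccl7 (ENSMUSG00000035373, chr11:82045712-82047525, plus strand), which encodes another CCR2 ligand and lies next to Ccl2, had 49.9, 42.0 and 48.5 FPKM in KO-labelled libraries and 3.80, 4.45 and 5.33 FPKM in WT. Every KO-labelled value was far above every WT value. The KO-labelled mean of 46.8 ± 4.19 FPKM and the WT mean of 4.53 ± 0.767 FPKM (SD, n = 3 each) are 10.3-fold apart (log2 fold change 3.12 ± 0.11, limma adjusted p = 8.98e-07). The ratio of Ccl2 to Ccl7 within a library, as log2 of FPKM + 1, was -0.14 ± 0.09 in KO-labelled libraries and 1.66 ± 0.16 in WT (SD, n = 3 each). Ccl2 was thus the more abundant of the pair in WT and about level with Ccl7 in KO-labelled cells. The exact two-sided permutation p of the difference of -1.80 was 0.1, the smallest this design allows, and 0.1 after adjustment over the 3 neighbour pairs compared, so no ratio could pass the threshold.

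Ccl3 and Ccl4, which encode the macrophage inflammatory proteins 1-alpha and 1-beta, were both lower in KO-labelled cells and were still the most abundant of the 10 there. Ccl3 (ENSMUSG00000000982, chr11:83647844-83649355, minus strand) had 121, 113 and 109.5 FPKM in KO-labelled libraries and 289, 294 and 276 FPKM in WT. The lowest WT value was more than double the highest KO-labelled one. The mean was 114 ± 5.85 FPKM in KO-labelled libraries and 286 ± 9.02 FPKM in WT (SD, n = 3 each), a ratio of KO-labelled to WT of 0.399 (log2 fold change -1.32 ± 0.05, limma adjusted p = 1.10e-06).

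Ccl4 (ENSMUSG00000018930, chr11:83662584-83664683, plus strand) had 54.1, 60.3 and 59.2 FPKM in KO-labelled libraries and 91.1, 99.7 and 88.7 FPKM in WT. Its change was the smallest of the 10 in log2 terms, at -0.68 ± 0.06 (limma adjusted p = 9.42e-05), with a mean of 57.9 ± 3.32 FPKM in KO-labelled libraries and 93.1 ± 5.80 FPKM in WT (SD, n = 3 each). The log2 ratio of Ccl3 to Ccl4 within a library was 0.97 ± 0.15 in KO-labelled libraries and 1.61 ± 0.05 in WT, a difference of -0.64 (exact two-sided permutation p = 0.1, also 0.1 after adjustment over the 3 pairs).

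Ccl9 and Ccl6, rodent CC chemokines that act through CCR1 and lie side by side, changed in opposite directions. Ccl9 (ENSMUSG00000019122, chr11:83572919-83578636, minus strand) had 32.5, 34.4 and 42.2 FPKM in KO-labelled libraries and 73.3, 76.2 and 73.6 FPKM in WT. The WT libraries were close together and KO-labelled replicate 3 was the highest of its group, still well below WT. The mean was 36.4 ± 5.11 FPKM in KO-labelled libraries and 74.4 ± 1.55 FPKM in WT (SD, n = 3 each), with a log2 fold change of -1.02 ± 0.09 and a limma adjusted p of 8.11e-05.

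Ccl6 (ENSMUSG00000018927, chr11:83587882-83593087, minus strand) had 1.31, 3.28 and 1.75 FPKM in KO-labelled libraries and 0.05216, 0.1074 and 0.05004 FPKM in WT. KO-labelled replicate 2 was about double the other KO-labelled libraries, which gave this gene the widest interval of the 10. These levels rest on 238 fragments over the KO-labelled libraries and 8 over WT, a ratio of 29.4 at equal depth with a 95% counting interval from 14.7 to 68.8 (exact binomial, counting error only). The log2 fold change was 1.49 ± 0.23 (limma adjusted p = 0.00113), a scale that understates the change of such a weakly expressed gene. The summed level of 8 neutrophil markers was 1.26 to 1.96 FPKM in KO-labelled libraries and 0.0675 to 0.141 FPKM in WT. The largest in KO-labelled libraries were S100a8, at 0.734 FPKM against 0.0225 FPKM in WT, and Cxcr2, at 0.632 FPKM against 0. S100a9 and Ly6g were at 0 throughout, and Mpo and Elane were at 0 in KO-labelled libraries and at 0.0469 and 0.0304 FPKM in WT. The part of these markers in the Ccl6 level was not tested. The log2 ratio of Ccl6 to Ccl9 was -3.63 ± 0.50 in KO-labelled libraries and -6.14 ± 0.01 in WT (exact two-sided permutation p = 0.1, also 0.1 after adjustment over the 3 pairs).

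Cxcl2, which encodes a neutrophil attractant that activated macrophages release early in inflammation, was the most strongly lowered of the 10. Cxcl2 (ENSMUSG00000058427, chr5:90903871-90905938, plus strand) had 0.385, 0.761 and 0.354 FPKM in KO-labelled libraries and 10.8, 8.28 and 8.93 FPKM in WT. Every WT library was more than 10 times as high as every KO-labelled one. The KO-labelled mean of 0.500 ± 0.227 FPKM and the WT mean of 9.34 ± 1.32 FPKM (SD, n = 3 each), from 66 fragments in KO-labelled libraries and 1244 in WT, gave a WT to KO-labelled ratio of 18.7 (log2 fold change -2.79 ± 0.14, limma adjusted p = 3.96e-06). Its upstream NF-kB match is shown above.

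Cxcl10 (ENSMUSG00000034855, chr5:92346638-92348889, minus strand) was higher in KO-labelled cells. It had 11.5, 9.72 and 11.2 FPKM in KO-labelled libraries and 0.644, 0.300 and 0.678 FPKM in WT, so that KO-labelled libraries were high throughout and WT low throughout. The KO-labelled mean of 10.8 ± 0.962 FPKM and the WT mean of 0.541 ± 0.209 FPKM (SD, n = 3 each) are 19.99-fold apart (log2 fold change 2.94 ± 0.12, limma adjusted p = 1.67e-06). The upstream window shown for Cxcl10 holds the NF-kB motif, as that of Cxcl2 does, and also the ISRE and AP-1 motifs, which the window of Cxcl2 does not. Art3, on the other strand, overlaps 5.91% of the exon length of Cxcl10 and had 0.0133 FPKM in KO-labelled libraries and 0.0119 FPKM in WT on average.

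Cxcl16 (ENSMUSG00000018920, chr11:70453983-70459984, minus strand) encodes a chemokine that is made as a membrane protein and shed by the metalloprotease ADAM10, and its receptor is CXCR6. It had 19.3, 18.7 and 17.6 FPKM in KO-labelled libraries and 6.96, 6.38 and 6.93 FPKM in WT. The spread within each group was small against the gap between them. The KO-labelled mean of 18.5 ± 0.867 FPKM and the WT mean of 6.76 ± 0.323 FPKM (SD, n = 3 each) are 2.74-fold apart (log2 fold change 1.33 ± 0.06, limma adjusted p = 2.36e-06). Zmynd15 on the other strand covers 18.3% of its exon length and averaged 1.61 FPKM in KO-labelled libraries and 0.246 FPKM in WT, and its part in the Cxcl16 values was not tested.

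Pf4 (ENSMUSG00000029373, chr5:90772435-90773383, plus strand) encodes platelet factor 4 or CXCL4, best known from platelet granules and also made by some macrophages. It had 15.3, 17.3 and 16.2 FPKM in KO-labelled libraries and 0 in all 3 WT libraries. The KO-labelled level of 16.3 ± 1.02 FPKM (SD, n = 3) came from 761 fragments, and against a floor of 3 fragments per WT library, 0.194 FPKM on average, it was at least 83.9-fold higher. The log2 fold change on the FPKM + 1 scale was 4.11 ± 0.07 (limma adjusted p = 3.95e-08). Of 9 megakaryocyte and platelet markers, 3 were at 0 in all 6 libraries and 8 were below 1 FPKM in every library, and their summed level was 1.80 to 1.93 FPKM in KO-labelled libraries and 0.147 to 0.473 FPKM in WT. Most of the KO-labelled sum was Vwf, at 1.165 FPKM against 0.0393 FPKM in WT on average, and its part in the Pf4 level was not tested. Among the platelet glycoprotein genes on this list, Gp9, Gp1bb and Gp6 had 0 fragments in KO-labelled libraries, and Gp1ba had 0.292 ± 0.0928 FPKM there and 0.124 ± 0.0830 FPKM in WT (SD, n = 3 each). Gata1, a transcription factor gene of the lineage, had 0.0714 FPKM in KO-labelled libraries and 0.0064 FPKM in WT on average, and Ppbp, the platelet chemokine gene beside Pf4, had 0.316 ± 0.0608 FPKM there and 0.0445 ± 0.0771 FPKM in WT (SD, n = 3 each).

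Both the total and the make-up of the transcripts of the 10 genes differed between the groups. The 10 genes summed to 348, 340 and 349 FPKM in KO-labelled libraries and to 491.5, 504 and 479 FPKM in WT, so that the total was lower in every KO-labelled library. In TPM, they made up 0.117 to 0.122% of all transcripts in KO-labelled libraries and 0.154 to 0.161% in WT. Ccl3 alone made up 33.0 ± 1.70% of the summed FPKM of the 10 genes in KO-labelled libraries and 58.2 ± 0.503% in WT (SD, n = 3 each). Ccl2 and Ccl7 gave 12.2 ± 0.173% and 13.5 ± 1.00% in KO-labelled libraries, against 3.34 ± 0.458% and 0.922 ± 0.172% in WT.

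**Figure D3:**
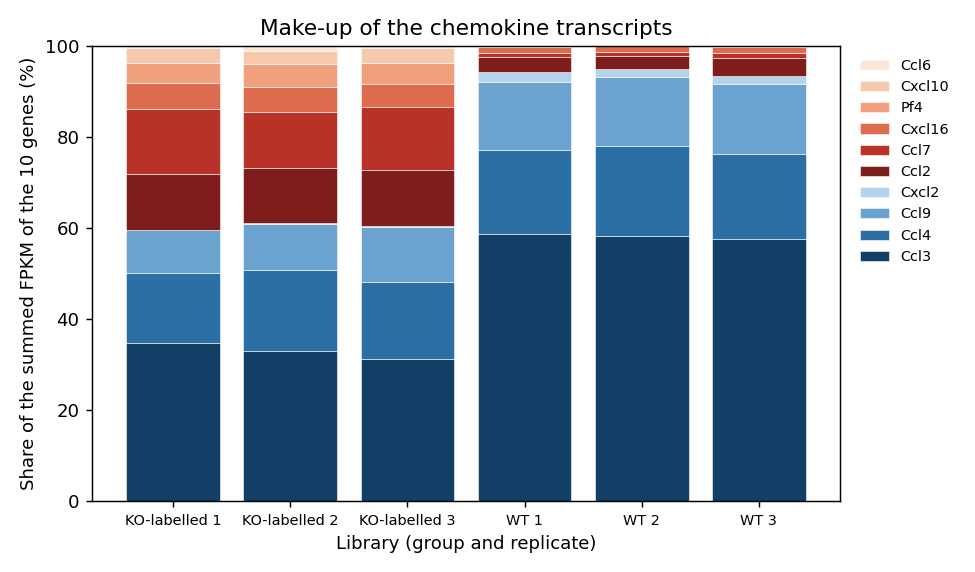
Share of each gene in the summed FPKM of the 10 chemokine genes, with 1 bar per library. Ccl3, the lowest part of each bar, takes 31.3 to 34.7% in KO-labelled libraries and 57.7 to 58.7% in WT; blue marks the 4 genes that were lower in KO-labelled cells and red the 6 that were higher.

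The order of the 10 levels, in FPKM and so per length, was Ccl3, Ccl4, Ccl7, Ccl2, Ccl9, Cxcl16, Pf4, Cxcl10, Ccl6 and Cxcl2 in KO-labelled cells. In WT it was Ccl3, Ccl4, Ccl9, Ccl2, Cxcl2, Cxcl16, Ccl7, Cxcl10, Ccl6 and Pf4. Ccl3 and Ccl4 were first and second in both groups. Cxcl2 held place 10 in KO-labelled cells and place 5 in WT, Pf4 place 7 in KO-labelled cells and 10 in WT, and Ccl7 place 3 in KO-labelled cells and 7 in WT. In KO-labelled cells Ccl7 overlapped Ccl2 (42.0 to 49.9 against 40.8 to 43.0 FPKM), and Ccl2 overlapped Ccl9 (32.5 to 42.2 FPKM), so their ranges over libraries overlap. Within each KO-labelled library the order was nevertheless Ccl7, Ccl2 and Ccl9. The other neighbours in either order did not overlap. Ranked by fragments without division by length, 3 genes kept their place in KO-labelled cells and 5 in WT.

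Both chromosome 11 groups of CC chemokine genes hold members, and their neighbours were compared along the chromosome. In the group from Ccl2 to Ccl8, Ccl2, Ccl7, Ccl12 and Ccl8 were all higher in KO-labelled cells, and Ccl11 had 0 fragments in all 6 libraries. Ccl12 and Ccl8 were at 0 in WT and entered the test only through the KO-labelled libraries. They could thus be called in no other direction, and the shared direction is not read as a trait of the group. Ccl6, in the other group, also entered the test only through the KO-labelled libraries. At 0.0699 FPKM in WT, it too could be called only higher. In the group from Ccl5 to Ccl4, Ccl5 and Ccl6 were higher and Ccl9, Ccl3 and Ccl4 lower. The alternation along Ccl9, Ccl6 and Ccl3 rests on Ccl6 and is not read as a trait of the group. On chromosome 5, Pf4 and Cxcl2 lie in a group with Cxcl5, Ppbp, Cxcl3, Cxcl15 and Cxcl1, and none of these other 5 reached a mean of 1 FPKM in either group.

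**Figure D4:**
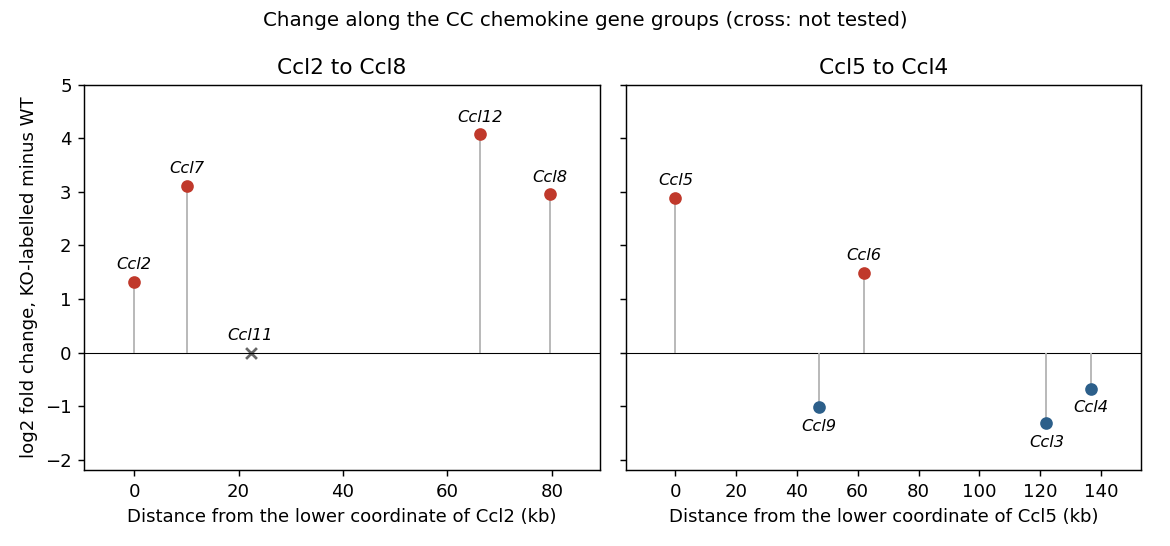
The log2 fold change of each CC chemokine gene, KO-labelled minus WT, at its distance in kb from the lower coordinate of the first gene of its group on chromosome 11, with a cross for a gene not tested. Every tested gene from Ccl2 to Ccl8 lies above 0, whereas from Ccl5 to Ccl4 genes above 0 and below 0 lie next to each other. Ccl12, Ccl8 and Ccl6 entered the test only through the KO-labelled libraries. At their WT levels, 0 for Ccl12 and Ccl8 and 0.0699 FPKM for Ccl6, they could lie only above 0.

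Of the 28 other chemokine ligand genes, 13 were at 0 in all 6 libraries and 4 were tested, Ccl5, Ccl8, Ccl12 and Ccl24, all of which rose. Ccl8, Ccl12 and Ccl24 were at 0 in WT and entered the test only through the KO-labelled libraries, so they could be called in no other direction, and the count is not read against the 30.6% of tested genes that were higher. With no filter on low values, 7 of the other ligands were higher and 2 lower, where 3902 of all 20848 genes were higher and 3512 lower. Ccl5, a T cell and monocyte attractant, had 34.1, 32.1 and 29.8 FPKM in KO-labelled libraries and 4.00, 2.71 and 3.74 FPKM in WT, with no overlap (9.18-fold, limma adjusted p = 1.58e-06). Ccl12, which encodes another mouse CCR2 ligand, had 20.3, 16.6 and 11.9 FPKM in KO-labelled libraries and 0 in WT (at least 62.4-fold higher). Ccl8, a monocyte chemoattractant gene of the same group, had 6.82, 6.36 and 7.16 FPKM in KO-labelled libraries and 0 in WT (at least 24.8-fold higher), both at a floor of 3 fragments per WT library.

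Ccl24, the eotaxin-2 gene, which is known to respond to IL-4 in mouse macrophages, had 5.68, 6.16 and 5.45 FPKM in KO-labelled libraries and 0 in WT (at least 53.3-fold higher, limma adjusted p = 4.75e-07). Other ligands linked to IL-4 in macrophages, singled out after their values were seen, were Ccl17, with 0 fragments in all 6 libraries, and Ccl22, with 0.0182 ± 0.0166 FPKM in KO-labelled libraries and 0.422 ± 0.259 FPKM in WT (SD, n = 3 each), below the level for testing. Cxcl14 had 0.324 ± 0.172 FPKM in KO-labelled libraries and 1.02 ± 0.218 FPKM in WT and was not tested. Counting all 38 ligands, 13 or 14 reached 1 FPKM in each KO-labelled library and 8 or 9 in each WT library.

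Receptors of the members were at low levels. Of 7 receptor genes, Ccr3 and Cxcr6 were at 0 in all libraries and only Cxcr3, the receptor gene for CXCL10, was tested. Cxcr3 had 0.788, 1.09 and 1.09 FPKM in KO-labelled libraries and 3.87, 4.23 and 2.52 FPKM in WT, the opposite direction to Cxcl10 (log2 fold change -1.17 ± 0.16, limma adjusted p = 0.000740). Ccr1, the receptor gene for CCL3, CCL6 and CCL9, averaged 0.0527 FPKM in KO-labelled libraries and 1.21 FPKM in WT, and Cxcr2, the receptor gene for CXCL2, averaged 0.632 FPKM in KO-labelled libraries and was at 0 in WT. Of 5 atypical receptor genes, most of which encode proteins that bind chemokines without the usual signal, none was tested. Ccrl2 had the highest level, at 1.27 ± 0.220 FPKM in KO-labelled libraries and 0.0784 ± 0.0302 FPKM in WT (SD, n = 3 each).

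Of 30 genes for transcription factors and inhibitors upstream of chemokine genes, 29 were tested, of which 14 rose, 7 fell and 8 stayed short of the threshold. The same test called 30.6% of all tested genes higher and 30.2% lower, and the counts are not read as a trait of the list. Their median log2 fold change was 0.21, against 0.0055 over all tested genes. Irf1, an interferon-induced activator, had 11.2, 11.02 and 9.19 FPKM in KO-labelled libraries and 2.46, 2.38 and 2.13 FPKM in WT (4.50-fold, limma adjusted p = 4.09e-06). Fosl1, an AP-1 subunit gene, had 0.799, 0.476 and 0.245 FPKM in KO-labelled libraries and 10.1, 9.63 and 11.6 FPKM in WT (limma adjusted p = 3.76e-06). Its exons overlap by 57.2% with the antisense gene Ccdc85b, which averaged 22.5 FPKM in KO-labelled libraries and 42.5 FPKM in WT, so its level is uncertain.

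The transcript tails of the 10 genes were searched for the pentamer ATTTA, the core of AU-rich elements, and for the nonamer TTATTTATT, which holds it. Cxcl2, the most strongly lowered gene, had 11 pentamers and 4 nonamers in a 3′ UTR of 734 bases, and Ccl3 had 5 pentamers and no nonamer in 409 bases. Their densities were 1.5 and 1.22 pentamers per 100 bases. A density of at least 1 per 100 bases was found in 1.27% of 9535 tested genes, whose median was 0.13. By count, Ccl9 also had 5 pentamers, in 2465 bases, and Ccl6 had 4 in 943 bases, where 34.5% of tested genes had at least 3. The other 8 members had 0.14 to 0.81 per 100 bases, and Cxcl2 was the only one of the 10 with the nonamer, which 7.07% of tested genes hold. Pf4, which was higher in KO-labelled libraries, had 0.81 per 100 bases, and Ccl4 and Ccl9, which were lower, had 0.66 and 0.2. A link between pentamers and direction was not tested. The 30 bases with the most pentamers are shown for Cxcl2 and Ccl3, with pentamers in capitals, at chr5:90905327-90905356 (plus strand) and chr11:83648085-83648114 (minus strand) of mm10, both in the 3′ UTR.
Cxcl2: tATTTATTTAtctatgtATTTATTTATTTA
Ccl3: gactcttcacttgaaattttATTTAATTTA

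Genes for proteins that bind mRNA tails and govern decay were also looked up, some of which recognise AU-rich elements and others, such as Zc3h12a, Rc3h1 and Rc3h2, stem-loops, while Elavl1 stabilises its targets. Of these 9 genes, all tested, 2 rose, 3 fell and 4 stayed short of the threshold (median log2 fold change -0.12), where 30.6% of all tested genes rose and 30.2% fell. The count of 3 became 1 after rescaling to TPM and on leaving out WT replicate 1, WT replicate 2 or KO-labelled replicate 2. Zfp36, which encodes tristetraprolin, a protein that binds AU-rich elements and speeds decay, had 32.4, 29.6 and 23.4 FPKM in KO-labelled libraries and 13.1, 15.0 and 13.3 FPKM in WT (log2 fold change 0.98 ± 0.12, limma adjusted p = 0.000361). Khsrp, another decay factor, had 40.8, 38.7 and 34.2 FPKM in KO-labelled libraries and 66.6, 68.8 and 65.5 FPKM in WT (-0.81 ± 0.07, limma adjusted p = 5.45e-05), with a near-identical copy, Gm8602, elsewhere in the genome. The part of these factors in the chemokine levels was not tested.

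Among 15 proteases that cut or shed chemokines 6 were tested, of which 3 rose, 2 fell and 1 stayed short of the threshold (median log2 fold change 0.08). For this count and that of the proteoglycan list below, the shares over all tested genes were 30.6% higher and 30.2% lower. Mmp9, gelatinase B, had 0.546, 0.301 and 0.724 FPKM in KO-labelled libraries and 4.76, 4.88 and 4.16 FPKM in WT (limma adjusted p = 1.71e-05). Ctsl, cathepsin L, had 70.0, 70.4 and 75.7 FPKM in KO-labelled libraries and 30.7, 33.1 and 33.4 FPKM in WT (limma adjusted p = 3.27e-06), and it has near-identical copies annotated as Gm47551 and Gm49230. Proteoglycans hold chemokines at the cell surface and in granules, and of 9 genes for proteoglycans and for enzymes that build their heparan sulfate chains 6 were tested, with 3 higher, 2 lower and 1 short of the threshold (median log2 fold change 0.64). Sdc3 and Sdc4, both syndecan genes, had the largest changes, at 19.4 ± 1.17 and 125 ± 5.31 FPKM in KO-labelled libraries and 1.66 ± 0.232 and 42.2 ± 0.774 FPKM in WT (SD, n = 3 each, limma adjusted p at most 3.17e-07).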

How the data were processed

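The authors deposited FPKM values, 1 table per library with 54532 Ensembl genes. HISAT2 2.0.5, featureCounts 1.5.0-p3 and mm10 are named in the submitters' processing notes, and poly(A) selection in the labels' protocol, which allows for stranded and unstranded libraries. The annotation release, strand setting and handling of multiply matching reads were not stated, so overlapping antisense genes may share reads. GENCODE M21, on the same build, named 54495 genes. FPKM times exon length gave fragments, whole within 0.1 for 97.8 to 98.0% of values below 200, which served floors, counting intervals and 1 alternative.

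The 10843 genes averaging 1 FPKM or more were tested on log2(FPKM + 1), KO-labelled minus WT, with limma 3.58.1 (R 4.3.3, trend option, no covariate), checked on simulated data. Folds are ratios of mean FPKM. Near-identical copies were sought with BLAST+ 2.17.0+ (at least 95% identity over 80% of the shorter transcript and 150 bases). The members and lists were chosen with earlier results of these data known. Named besides the members were other ligands averaging 1 FPKM or more in either group and the 2 tested genes with the largest change in each list. Alternatives changed the pseudocount, filter, scaling, test, replicate block and libraries.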

Additional observations from a re-analysis of the deposited data

How the results depend on the processing

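All 10 members kept their direction and their side of the adjusted p of 0.05 under all alternatives in which they were tested, 128 values in all, with a largest adjusted p of 0.00601 (limma, Ccl6). Leaving out a library could not reverse a direction, since the groups did not overlap for any member. The changes of filter and the replicate block left the fold changes as they were, so these settings bear only on the adjusted p. At a mean of at least 5 FPKM, Ccl6 and Cxcl2 were not tested. The sizes of weakly expressed genes moved with the pseudocount and with voom. The log2 fold change ranged from 1.24 to 4.58 for Ccl6, 2.83 to 4.36 for Cxcl10, 4.07 to 8.96 for Pf4 and -4.31 to -2.69 for Cxcl2, and from 1.25 to 1.45 for Ccl2 and -0.71 to -0.56 for Ccl4. Rescaling to TPM moved the median log2 fold change of all tested genes to 0.0959, against 0.0055, with 3969 genes higher and 2642 lower.

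Without a filter, 7 other ligands were higher and 2 lower, 2 receptors were higher and 3 lower, 1 atypical receptor was higher, and 6 proteases were higher. Of all 20848 genes in that fit, 3902 were higher and 3512 lower. At a mean of at least 5 FPKM, 2 other ligands were higher, 0 receptors and 1 protease lower, beside 2340 higher and 2370 lower of all 7290 genes. These counts are not read as traits of the lists. The count of genes of the mRNA decay list lower in KO-labelled cells was 1 after rescaling to TPM and 1 to 3 on leaving out a library. Ranked by fragments without division by length, 3 members kept their place in KO-labelled cells and 5 in WT. The Ccl6 to Ccl9 difference of 2.51 was 4.66 with a pseudocount of 0.1. Leaving out WT replicate 1 brought the Tnfsf9 difference to -0.313 FPKM, and leaving out WT replicate 2 to -2.39 FPKM, against -1.42 with all libraries. The exact two-sided permutation p was then 0.7 and 0.1, against 0.4.

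No pairing by replicate number was seen. The correlations of same-numbered deviations from the group means were -0.034, 0.047 and -0.032, and those of differently numbered ones -0.06 to 0.075. With 3 libraries a group these values cannot exclude a pairing. With a replicate block 3119 genes were higher and 3075 lower, against 3321 and 3273, and it moved no count of members or list genes by over 1.5 times. Counts below a few fragments, as for Ccl6 in WT, limit the size of such folds.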
